A study of Mus musculus with 17 samples.

Results

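The alpha-class glutathione transferases are represented here by 4 genes, Gsta1, Gsta2, Gsta3 and Gsta4, out of 55487 gene identifiers in the deposited count table. The members were chosen by family name, with the difference between db/db and db/m kidneys already known from an earlier reading of the same counts, in which Gsta2 stood among the largest rises. Their differences between the groups are therefore given as a description, with sizes and errors but without a test. All 4 were in the table, 3 had any count, and the same 3 passed the filter on low counts.

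Kidneys of 17 male mice aged 16 weeks were profiled by 3′ end sequencing of polyadenylated RNA, with 1 library per animal. The db/db group (n = 9) is homozygous for the leptin receptor mutation Leprdb on the BKS background and is the obese, diabetic group. The db/m group (n = 8) carries a single Leprdb copy and is lean. The strain, BKS.Cg-Dock7m +/+ Leprdb/J, also carries the coat colour allele Dock7m: the design text gives WT/HO for db/db and HE/HE for db/m, which, read in the order of the strain name, leaves db/db without Dock7m and db/m with a copy of it. The groups thus differ at both loci, and effects of the 2 alleles cannot be told apart. Groups follow the sample titles, because the genotype field states the opposite genotype for all 17 samples, whereas the library names, and group sizes in the design text, go with the titles. If that field were right, every direction below would turn round. The labels name no batch; library numbers rise through db/m and then db/db, so any effect of processing order cannot be told apart from group.

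Glutathione transferases join the thiol of glutathione to electrophiles such as oxidised lipids, drugs and toxins, which makes them more soluble and ready for export or for processing to mercapturic acids. The alpha class is abundant in liver and in the proximal tubule of the kidney. It also reduces lipid hydroperoxides through a glutathione peroxidase activity. In mice, Gsta1 and Gsta2 encode near-identical subunits known for strong induction by antioxidants and xenobiotics, Gsta3 encodes a constitutive subunit that detoxifies the epoxide of aflatoxin, and Gsta4 encodes an enzyme specialised for hydroxyalkenals, the reactive aldehydes of lipid peroxidation.

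Gene counts per library ran from 3256427 to 7627747, and 16102 to 19328 genes were detected. The tissue label was checked against markers of kidney cells: 12 of 12 proximal tubule markers of segments S1 and S2 and 5 of 5 markers of the thick ascending limb had counts in both groups. One library, db/db replicate 8, stood apart on the first principal component at 79.2, against -44.3 to 43.1 for the other libraries, so results that turn on it are given with and without it. Mitochondrially encoded genes took 22.02% to 30.3% of counts in db/db libraries and 27.4% to 30.6% in db/m libraries. With these genes left out of the library sizes, an alternative chosen after seeing the data, the log2 fold changes were 4.28 for Gsta2, 0.59 for Gsta3, 1.01 for Gsta4 and 3.66 for Gm10639.

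Because 3′ reads were counted, how well a gene is counted depends on how distinct the end of its transcript is. On chromosome 9, Gsta4, Gsta1, the predicted genes Gm3776 and Gm10639, and Gsta2 lie in that order within a single cluster in RefSeq's gene table, while Gsta3 lies on chromosome 1. Gm3776 and Gm10639 are protein-coding close copies of Gsta1 and Gsta2. In the GENCODE M21 transcripts, the last 300 bases of Gsta1 matched those of Gm3776 at 298 of 301 aligned positions and those of Gsta2 at 283 of 300. The ends of Gsta2 and Gm10639 matched at 292 of 301 positions. By contrast, identity between the ends of Gsta3 and Gsta4 was 46.0%. Of the 251 windows of 50 bases in the Gsta1 end, 206 also occurred in a transcript of another gene, 200 of them in Gm3776. For Gsta2, 102 of 251 such windows were shared, 77 of them with Gm10639, whereas for Gsta3 and for Gsta4 0 of 251 were shared. With windows of 75 bases, 156 of 226 were shared for Gsta1 and 66 of 226 for Gsta2. The read length is not given in the sources used here, and the table's line for reads with several alignments is 0 in every library. How many alpha-class reads were lost for matching several genes is therefore not known.

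**Figure D1:**
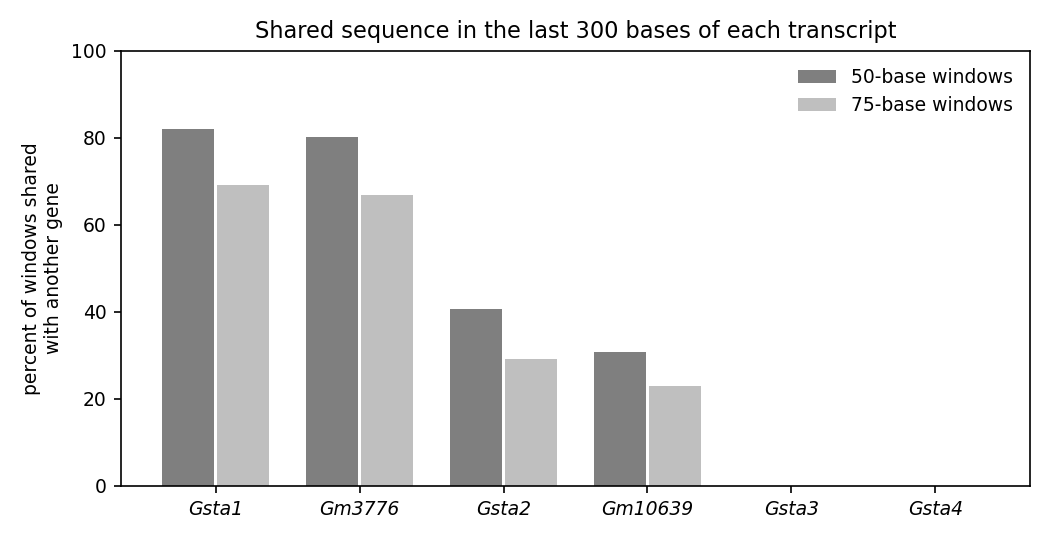
Percent of 50-base (dark bars) and 75-base (light bars) windows in the last 300 bases of each gene's longest protein-coding transcript that also occur in a transcript of another gene. Gsta1 and Gm3776 share 82.1% and 80.1% of their 50-base windows, Gsta2 and Gm10639 share 40.6% and 30.7%, and Gsta3 and Gsta4 share none.

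The start regions of the counted genes are shown because Gsta2 and Gm10639 were both far more abundant in db/db, whereas the log2 fold change of Gsta3 was 0.58. RefSeq's promoter table for GRCm38.p6 covers 250 bases before and 50 after a gene's start. It matched 3 of the 4 members and both copies; Gsta4 was not matched. Capitals mark letters found by a search of both strands for the core of the antioxidant response element (TGACNNNGC, bound by NRF2), the core of the xenobiotic response element (GCGTG, bound by the aryl hydrocarbon receptor) and a core motif of HNF1 (GTTAAT).
Gsta2, chr9:78347096-78347395, minus strand: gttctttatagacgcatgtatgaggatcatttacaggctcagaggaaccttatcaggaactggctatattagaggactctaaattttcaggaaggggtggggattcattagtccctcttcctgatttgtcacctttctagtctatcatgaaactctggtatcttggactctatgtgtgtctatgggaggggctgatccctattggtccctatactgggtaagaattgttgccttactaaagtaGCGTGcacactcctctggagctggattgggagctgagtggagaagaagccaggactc
Gm10639, chr9:78289678-78289977, plus strand: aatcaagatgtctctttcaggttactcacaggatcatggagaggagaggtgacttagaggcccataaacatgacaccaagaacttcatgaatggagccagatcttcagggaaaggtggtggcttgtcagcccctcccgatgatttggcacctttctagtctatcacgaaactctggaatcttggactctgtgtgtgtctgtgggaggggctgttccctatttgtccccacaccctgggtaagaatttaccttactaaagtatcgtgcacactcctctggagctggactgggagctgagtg
Gsta3, chr1:21240335-21240634, plus strand: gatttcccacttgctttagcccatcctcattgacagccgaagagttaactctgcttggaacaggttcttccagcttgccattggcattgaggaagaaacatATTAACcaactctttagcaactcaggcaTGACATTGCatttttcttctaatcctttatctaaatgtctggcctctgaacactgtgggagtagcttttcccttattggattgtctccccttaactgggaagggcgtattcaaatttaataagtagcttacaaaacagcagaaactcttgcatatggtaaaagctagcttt
The Gsta2 window held a single GCGTG, 7 bases before the annotated start, and neither of the other motifs. That letter string occurs in 32.4% of all 32841 windows of this length. The Gsta1 window, which matched that of Gsta2 at 232 of 311 aligned positions, also held GCGTG, and the Gm10639 window held none of the 3 motifs. The Gm10639 window matched that of Gsta2 at 218 of 322 positions. It was closer to that of Gsta1 (279 of 315) and closest to that of Gm3776 (294 of 302), which held GCGTG. The Gsta3 window held TGACATTGC, which fits the antioxidant response element core found in 12.4% of windows, and an HNF1 core on the opposite strand, found in 7.10%. No motif overlapped another. Sequence more than 250 bases before a start was not searched. A motif missing from a window is therefore not shown to be missing from the gene's regulatory region. A match is a run of letters only, and whether any factor binds there was not measured.

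Gsta2, the inducible subunit, was the member that differed most. It had 157 to 690 counts per library in db/db kidneys and 7 to 26 in db/m kidneys. On the CPM scale (counts relative to the TMM-scaled library size; a 3′ tag count does not grow with transcript length) Gsta2 ran from 33.4 through a median of 51.3 to 144.9 CPM in db/db, against 1.61, 3.38 and 4.37 CPM in db/m. The lowest db/db library was thus far above the highest db/m library, and the groups did not overlap. Such separation with db/db higher was seen for 0.734% of the 12131 genes tested, and with db/db lower for 1.05%. Means were 64.7 ± 35.1 CPM in db/db (SD, n = 9) and 3.29 ± 0.819 CPM in db/m (n = 8), a log2 fold change of 4.27 (SE 0.30, 95% interval 3.65 to 4.90), or 19.3-fold (12.5 to 29.8). This ranked 4 among all log2 fold changes. The spread within db/db was wide, with replicate 3 at 144.9 CPM and the next library, replicate 7, at 88.7 CPM. Without replicate 3 the log2 fold change was 4.03 (SE 0.23). The db/m level rests on few reads, 127 over 8 libraries, so it is less precisely known than the db/db level, which rests on 2596.

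Gsta1, the twin of Gsta2, had 0 counts in all 17 libraries. A count of 0 allows up to 3 counts, which is 0.378 to 0.924 CPM in db/db libraries and 0.447 to 0.812 CPM in db/m libraries, covering counting error only. Its copy Gm3776 was at 2 counts in total, both in db/db replicate 7. As most of the Gsta1 end is shared with Gm3776, these zeros do not show that the transcript was missing, and no fold change is given for either gene.

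Gm10639, the close copy of Gsta2, had 40 to 203 counts per library in db/db and 0 to 13 in db/m. Its level ran from 9.48 through 18.1 to 42.6 CPM in db/db, against 0, 1.67 and 3.52 CPM in db/m, and again the groups did not overlap. On the log2 scale db/db was higher by 3.65 (SE 0.41), with a 95% interval of 2.81 to 4.49. Of the reads assigned to Gsta2 or Gm10639, the copy took 23.1% in db/db (780 of 3376; exact Clopper-Pearson 95% interval 21.7 to 24.6) and 30.6% in db/m (56 of 183; 24.02 to 37.8), counting error only. Per library this share ran from 15.4% to 30.5% in db/db and from 0% to 54.2% in db/m, where a library held as few as 7 reads of both genes together. With the reads of Gsta1, Gsta2, Gm3776 and Gm10639 added into a single row, the log2 fold change was 4.11 (SE 0.30).

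**Figure D2:**
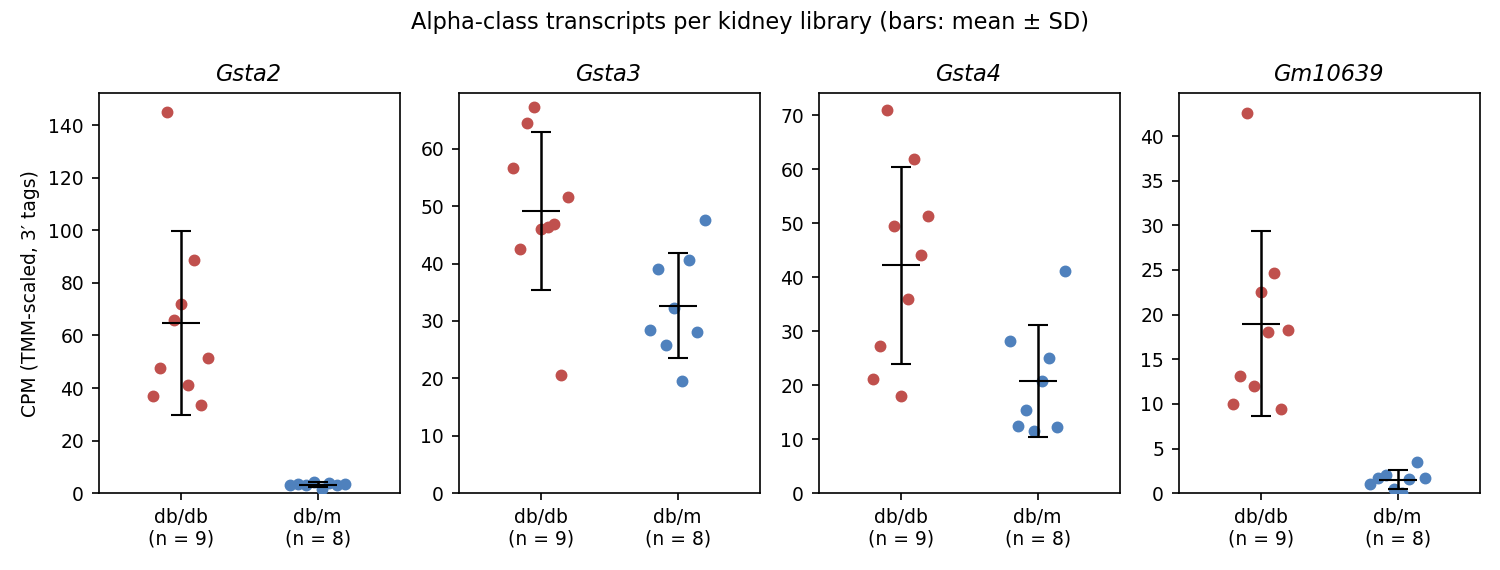
TMM-scaled CPM of Gsta2, Gsta3, Gsta4 and the copy Gm10639 in each library (points), with mean and SD (black); each panel has its own vertical axis from 0. All db/db libraries lie above all db/m libraries for Gsta2 and Gm10639, and the groups overlap for Gsta3 and Gsta4.

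Gsta4, the hydroxyalkenal-conjugating member, ran from 17.97 through 44.1 to 71.0 CPM in db/db kidneys and from 11.5 through 18.03 to 41.2 CPM in db/m kidneys. The groups overlapped: db/m replicate 8 lay at 41.2 CPM, above 4 of the 9 db/db libraries, and db/db replicates 5 and 1 were the lowest of their group. Means were 42.2 ± 18.2 CPM in db/db and 20.8 ± 10.3 CPM in db/m (SD), with a log2 fold change of 1.01 (SE 0.29, 95% interval 0.41 to 1.61), about 2.01-fold. The value without 1 library lay between 0.88 (without db/db replicate 3) and 1.22 (without db/m replicate 8).

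Gsta3, the constitutive member, ran from 20.6 through 46.8 to 67.2 CPM in db/db and from 19.6 through 30.3 to 47.6 CPM in db/m. A single db/db library, replicate 8, was at 20.6 CPM; the other 8 were at 42.5 CPM or more. Means were 49.2 ± 13.7 CPM in db/db and 32.7 ± 9.15 CPM in db/m, and the difference on the log2 scale was 0.58 (SE 0.19) with a 95% interval of 0.18 to 0.99. Without db/db replicate 8, which is the library that stood apart, it was 0.69 (SE 0.15). That library was not low for Gsta4, where it held 44.1 CPM, but it was the lowest of its group for Gsta2, at 33.4 CPM.

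With edgeR (quasi-likelihood, Benjamini-Hochberg over all 12131 genes, threshold 0.05), 2 of the 3 members tested, Gsta2 and Gsta4, were among the genes called higher, and Gsta3 was not. Overall 3.91% of genes were called higher and 3.49% lower, 7.39% in either direction. As the members were chosen with this contrast known, nothing is read from their count. Whether a member or its copy is called, here or with a library left out, is likewise a description and not support. Gsta2 and Gm10639 stayed among the called genes in all 17 fits that left out 1 library. Gsta4 did so in 9 of 17, losing its place when any of replicates 2, 3, 4 and 7 of db/m, or of replicates 3, 4, 7 and 9 of db/db, was left out (values 0.88 to 0.98). Gsta3 entered the called genes in 2 of 17, without db/m replicate 8 (log2 fold change 0.68) or db/db replicate 8 (0.69).

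The order of the levels differed between the groups. In db/m kidneys, on the CPM scale, Gsta3 was the most abundant of the counted members, followed by Gsta4 and then Gsta2, and Gsta2 was below Gsta3 and below Gsta4 in 8 of 8 libraries. Gsta3 exceeded Gsta4 in 7 of those 8. In db/db kidneys the means ran Gsta2, Gsta3, Gsta4, but neighbours in that order lay within each other's spread: Gsta2 exceeded Gsta3 in 5 of 9 libraries and Gsta3 exceeded Gsta4 in 6 of 9. Gsta2 made up 39.9% ± 8.14 of the counts of the members in db/db and 6.03% ± 1.75 in db/m (SD). Gsta3 made up 32.8% ± 8.99 and Gsta4 27.3% ± 9.12 in db/db, against 58.2% ± 9.05 and 35.8% ± 10.5 in db/m. The summed level of the members was 156 ± 56.9 CPM in db/db and 56.8 ± 17.2 CPM in db/m. These shares rest on reads that could be assigned to 1 gene, and how many Gsta2 reads could not was not measured.

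**Figure D3:**
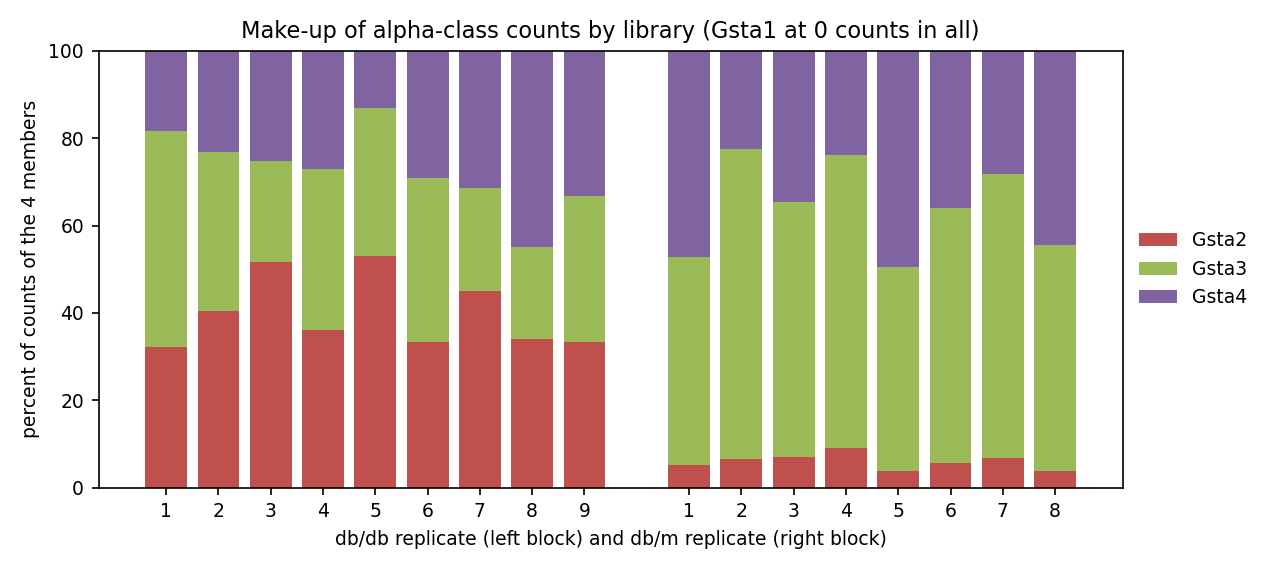
Percent of the counts of the 4 members taken by Gsta2 (red), Gsta3 (green) and Gsta4 (purple) in each db/db library (left block) and each db/m library (right block). Gsta2 takes 32.2% to 52.9% in db/db libraries and 3.85% to 9.09% in db/m libraries.

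Variation between animals of the same group was not used in choosing the members, so it could be tested. Pearson's r and Spearman's rho of log2 CPM were computed for 8 relations, 4 pairs in each group, with exact two-sided permutation tests over all pairings and Benjamini-Hochberg adjustment over the 8. Among the 6 relations between members, none passed. The highest was between Gsta2 and Gsta3 in db/m (r = 0.784, exact permutation p = 0.0168, adjusted p = 0.0674; rho = 0.762, exact permutation p = 0.0368, adjusted p = 0.147; n = 8). Without the 2 libraries farthest from the median of Gsta2 it was 0.883 (exact permutation p = 0.0653). In db/db the same pair had r = 0.548 (exact permutation p = 0.128, adjusted p = 0.313; rho = 0.450, exact permutation p = 0.230; n = 9). Leaving out replicates 3 and 7 gave 0.564 (exact permutation p = 0.190).

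Gsta2 and Gsta4 had r = 0.494 in db/db (exact permutation p = 0.176, adjusted p = 0.313; rho = 0.517, exact permutation p = 0.162; n = 9), which rested on 2 libraries: without replicates 3 and 7 it was -0.119 (exact permutation p = 0.790). In db/m their r was -0.0938 (exact permutation p = 0.853; rho = -0.119, exact permutation p = 0.793; n = 8). Leaving out replicates 4 and 5 gave 0.397 (exact permutation p = 0.418). Gsta3 and Gsta4 had r = 0.103 in db/db (exact permutation p = 0.817; rho = 0.450, exact permutation p = 0.230) and 0.325 in db/m (exact permutation p = 0.426; rho = 0.333, exact permutation p = 0.428). Leaving out db/db replicates 4 and 8 gave 0.397 (exact permutation p = 0.381). Leaving out db/m replicates 5 and 8 gave 0.0897 (exact permutation p = 0.833). With so few animals a moderate relation could be missed.

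Gsta2 and Gm10639 varied together in db/db (r = 0.879, exact permutation p = 0.00241, adjusted p = 0.0192; rho = 0.883, exact permutation p = 0.00308, adjusted p = 0.0246; n = 9). The relation leaned on replicates 3 and 7: r fell to 0.620 when both were left out (exact permutation p = 0.148). In db/m r was 0.508 (exact permutation p = 0.195, adjusted p = 0.313; rho = -0.190, exact permutation p = 0.665; n = 8), and -0.397 without replicates 4 and 5 (exact permutation p = 0.488), at 13 or fewer Gm10639 counts per library. The pair was added after the data were seen, and the part that shared sequence plays in it was not tested.

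**Figure D4:**
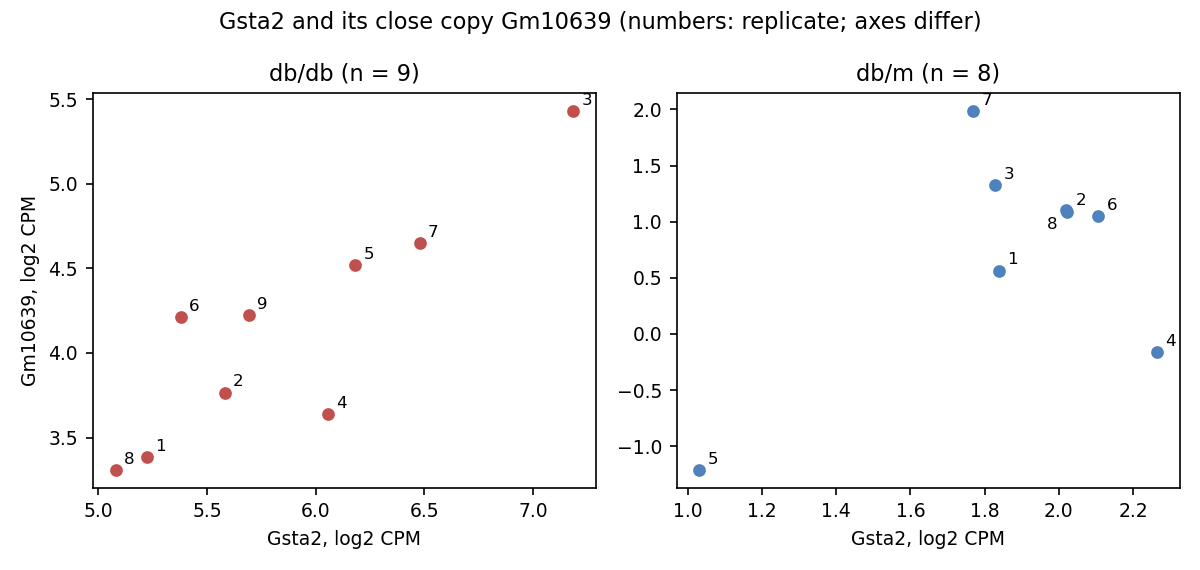
Log2 CPM of Gm10639 against Gsta2 in the 9 db/db libraries (left) and the 8 db/m libraries (right), each point labelled with its replicate number; the axes differ between panels. In db/db the libraries lie along a rising line with replicate 3 at its upper end (r = 0.879), and in db/m replicate 5 lies apart at the lower left.

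The genes whose spread within groups was most like that of a member were taken by Pearson's r of log2 CPM deviations from the group mean over the 17 libraries, among 10027 genes with average log2 CPM of at least 2. For Gsta2 these were Smyd2 (r = 0.797), Lrrc42 (0.729) and Klhl42 (0.724). For Gsta3 they were Cenpv (0.886), Cd164 (0.881) and Laptm4a (0.879), and for Gsta4 Atp13a2 (0.809), Rrn3 (0.806) and Cav2 (0.795). No gene appeared for more than 1 member, and none of the 9 was called between the groups (lowest edgeR Benjamini-Hochberg adjusted p = 0.0557, for Cav2). As the highest of many values, these r are a description only; all genes share the depth and composition of the same libraries.

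Genes of the wider glutathione system did not share one direction. The counts in each list below stand beside 3.91% called higher and 3.49% called lower over all 12131 genes tested. Of 18 other cytosolic transferases 10 could be tested; 3 rose and 0 fell in db/db, with a median log2 fold change of 0.10 against 0.00 over all genes. The omega-class reductase Gsto1 was at 42.6 ± 8.37 CPM in db/db and 19.4 ± 7.24 CPM in db/m (1.13, SE 0.18; adjusted p = 0.000291). The mu-class Gstm5 rose less (0.52, SE 0.11; adjusted p = 0.00546), as did the theta-class Gstt3 (0.42, SE 0.11; adjusted p = 0.0277), whose call ended when any 1 of 8 libraries was left out (db/m replicates 1, 2, 3, 4 and 6, db/db replicates 3, 7 and 9; 0.37 to 0.47 over all 17 fits). The groups did not overlap for Gstm5, as for 0.734% of all genes tested with db/db higher. Of the mitochondrial and membrane-bound enzymes 0 of 3 tested passed, Gstk1 being at 0.10 (SE 0.10). At an unadjusted p under 0.05 the count for these 3 was also 0. All adjusted p-values of pathway genes are from edgeR's quasi-likelihood test over all genes.

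In glutathione synthesis and turnover, 2 of 14 tested genes rose and 3 fell (median 0.06). Both subunits of glutamate-cysteine ligase, the rate-limiting enzyme of glutathione synthesis, fell: the modifier subunit Gclm was at 92.7 ± 24.9 CPM in db/db and 174 ± 32.1 CPM in db/m (-0.91, SE 0.15; adjusted p = 0.000482), and the catalytic subunit Gclc at 80.2 ± 11.9 CPM and 112 ± 25.0 CPM (-0.48, SE 0.13; adjusted p = 0.0202). The call of Gclc ended without db/m replicate 3 (-0.43) and without db/m replicate 4 (-0.40). Ggct, which breaks down gamma-glutamyl peptides, fell as well (-1.01, SE 0.18; adjusted p = 0.000786). Glutaredoxin Glrx rose (0.68, SE 0.12; adjusted p = 0.00108), and so did Ggt5 (0.85, SE 0.22; adjusted p = 0.0205), named after its value was seen.

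Of 13 genes listed for the mercapturic acid route, which turns glutathione conjugates into excreted products in the proximal tubule, 1 rose and 3 fell (median -0.37). The list joins enzymes that form mercapturic acids with enzymes that act on them or divert their precursors. The counts therefore give no direction for the route. The aminoacylase Acy3 was at 974 ± 260 CPM in db/db and 3553 ± 538 CPM in db/m (-1.87, SE 0.16; adjusted p = 8.44e-08), with no overlap between groups. The aminopeptidase Lap3 fell (-0.75, SE 0.12; adjusted p = 0.000264), as did Kyat1, a cysteine conjugate beta-lyase (-0.44, SE 0.13; adjusted p = 0.0473). The dipeptidase Dpep1 rose (0.63, SE 0.18; adjusted p = 0.0377). Kyat1 lost its call in 12 of the 17 fits without 1 library, keeping it without db/m replicates 7 and 8 and db/db replicates 1, 6 and 8 (-0.49 to -0.37 over all 17). Dpep1 lost it in 10, keeping it without db/m replicates 1, 5 and 7 and db/db replicates 1, 2, 3 and 6 (0.49 to 0.72), and was at 0.49 without db/db replicate 8. Of 6 exporters of conjugates tested 1 rose and 0 fell (median 0.06): the organic anion pump Abcc4 was at 78.1 ± 16.97 CPM in db/db and 33.3 ± 11.9 CPM in db/m (1.23, SE 0.18; adjusted p = 0.000120).

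Of 12 peroxidases 1 rose and 0 fell (median 0.01). This was Gpx3, the secreted plasma enzyme made by the proximal tubule (38626 ± 17776 CPM in db/db and 22925 ± 4421 CPM in db/m; 0.75, SE 0.21; adjusted p = 0.0311), whose call ended without any 1 of db/m replicates 1, 2, 3, 4, 6 and 8 and db/db replicate 7 (0.53 to 0.82 over all 17 fits). Without db/db replicate 8 the log2 fold change of Gpx3 was 0.53, and its call held. Among 19 tested genes that clear reactive aldehydes 4 rose and 2 fell (median 0.08). Carbonyl reductase Cbr1 was at 110 ± 26.4 CPM in db/db and 46.3 ± 6.25 CPM in db/m (1.25, SE 0.14; adjusted p = 4.81e-06). The aldehyde dehydrogenases Aldh1a7 (0.87, SE 0.11; adjusted p = 2.09e-05) and Aldh1a1 (0.86, SE 0.11; adjusted p = 2.37e-05) rose, and the groups did not overlap for these 3. Alcohol dehydrogenase Adh1 fell to 443 ± 134 CPM in db/db, against 991 ± 165 CPM in db/m (-1.16, SE 0.16; adjusted p = 4.98e-05). The groups did not overlap for Adh1 either. Such separation was seen for 0.734% of all genes tested with db/db higher and for 1.05% with db/db lower. Aldh1a7 and Aldh1a1 are near-identical, so their separate values are uncertain. The other called genes, named after their values were seen, were Akr1b7 (higher, 1.12, SE 0.26) and Aldh3a2 (lower, -0.69, SE 0.21; adjusted p = 0.0473). In 13 of the 17 fits without 1 library 1 gene of this list was called lower, the exceptions being db/m replicates 3, 5 and 7 and db/db replicate 1.

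Of 20 tested targets of NRF2, the transcription factor of the antioxidant response, 5 rose and 3 fell (median 0.02). The classical target Nqo1 was at 17.4 ± 3.19 CPM in db/db and 10.4 ± 1.65 CPM in db/m (0.74, SE 0.14; adjusted p = 0.00181). Abcc4 also stands on this list, as do Gclm and Gclc, which fell. Malic enzyme Me1, a source of NADPH, fell (-1.28, SE 0.20; adjusted p = 0.000274). The others that rose were Tkt (1.06, SE 0.25), Srxn1 (0.56, SE 0.14) and Pgd (0.40, SE 0.10), named after their values were seen. Of 15 tested transcription factors known for alpha-class genes, 1 rose and 0 fell (median -0.18). This was Nr1i2, the pregnane X receptor (8.81 ± 4.37 CPM in db/db and 3.28 ± 1.74 CPM in db/m; 1.41, SE 0.34; adjusted p = 0.0111). Nfe2l2, which encodes NRF2, was at 0.38 (SE 0.14; adjusted p = 0.117), and the aryl hydrocarbon receptor Ahr at -0.23 (SE 0.21; adjusted p = 0.592); both are named for the motifs searched. Without db/db replicate 1, 1 factor was called lower.

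**Figure D5:**
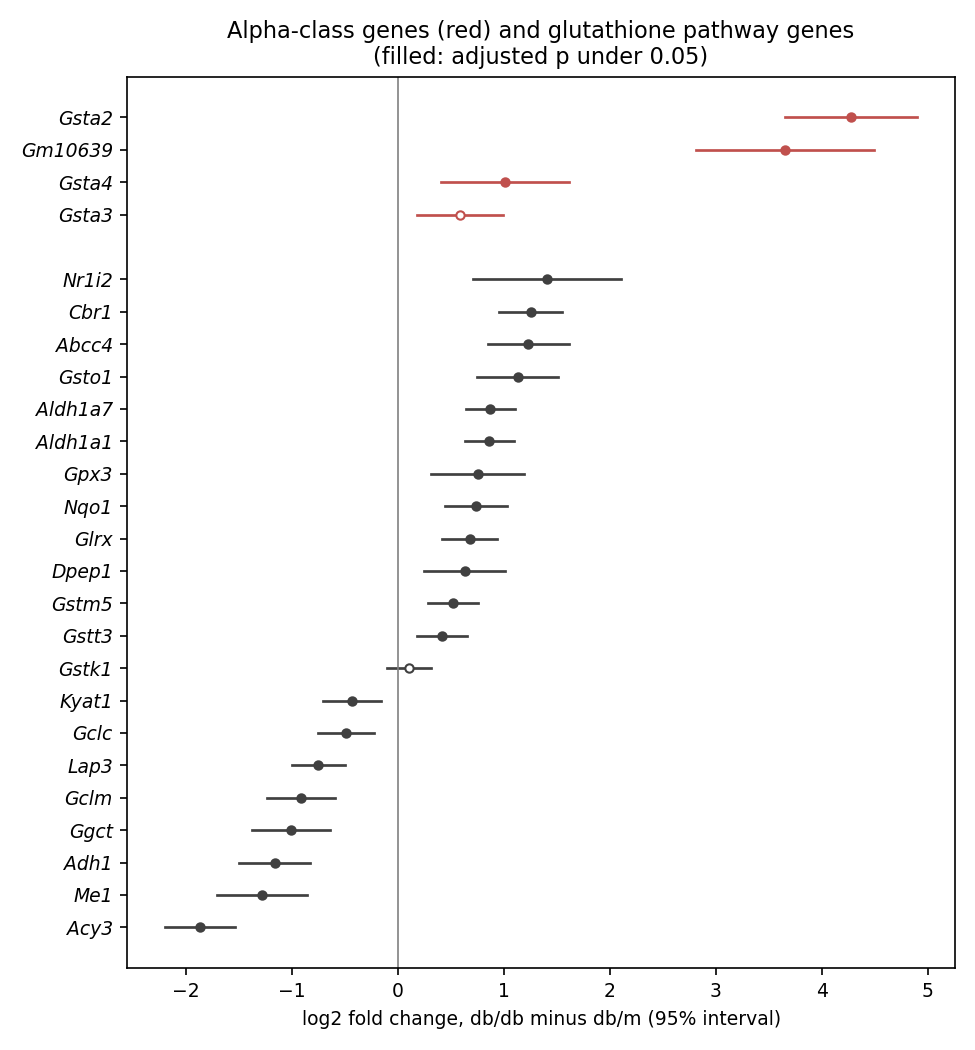
Log2 fold change (db/db minus db/m) with its 95% interval for the alpha-class rows (red) and for the named genes of the glutathione system (black); filled points were called at an adjusted p under 0.05. Gsta2 at 4.27 and Gm10639 at 3.65 lie right of all the others, which run from -1.87 for Acy3 to 1.41 for Nr1i2. The fill of the red points is a description only, as the members were chosen with this contrast known.

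Cell type markers also differed between the groups. Fewer cells of a type cannot be told apart from less RNA per cell or from changes in single marker genes. For comparison, 3.91% of all genes tested were called higher and 3.49% lower. Summed over 9 genes that mark segment S3 of the proximal tubule, levels ran from 2624 to 4126 CPM in db/db and from 4295 to 5458 CPM in db/m, with 1 marker called higher and 6 lower. Those of 12 markers of segments S1 and S2 overlapped, at 7404 to 10377 CPM in db/db and 7016 to 9814 CPM in db/m, with 2 called higher. Those of 7 markers of the distal convoluted and connecting tubule ran from 2431 to 4011 CPM in db/db and from 1524 to 2160 CPM in db/m, with 5 called higher. In the collecting duct, 6 principal cell markers summed to 646 to 1632 CPM in db/db and 285 to 985 CPM in db/m, with 3 called higher and 1 lower. There 5 intercalated cell markers summed to 155 to 232 CPM in db/db and 128 to 159 CPM in db/m, with 3 called higher. Podocyte markers summed to 152 to 225 CPM in db/db and 116 to 176 CPM in db/m, with 2 of 5 called higher. For the thick ascending limb the sums were 1109 to 2819 CPM in db/db and 1642 to 3510 CPM in db/m, with 1 marker called in each direction. Immune cell markers summed to 55.2 to 163 CPM in db/db and 108 to 167 CPM in db/m, with 1 of 4 tested called lower. The 5 endothelial markers summed to 291 to 347 CPM in db/db and 287 to 403 CPM in db/m. Liver also expresses the alpha class, so hepatocyte genes were examined: 10 of 10 had counts in both groups, summing to 46.0 to 117 CPM in db/db and 42.3 to 82.6 CPM in db/m, and 1 of the 4 tested was called higher. The most abundant of them, the protease inhibitor Serpina1a, averaged 36.6 CPM in db/db and 41.5 CPM in db/m, and Serpina1c 5.23 and 6.42 CPM. Only these 2 averaged lower in db/db than in db/m. Albumin, Alb, averaged 16.5 CPM in db/db and 8.07 CPM in db/m. In the same order of groups, Apoa2 averaged 8.35 and 3.33 CPM, Ttr 4.12 and 1.63, and Apoa1 2.80 and 1.13. Fgb averaged 1.70 and 0.887 CPM, and Ahsg 1.08 and 0.432. Ces3a had 8 and 3 counts, and the liver cytochrome Cyp2c29 had 7 and 4. Markers of adrenal cortex summed to 5.20 to 10.2 CPM in db/db and 2.53 to 6.91 CPM in db/m, with Cyp11b2 and Cyp21a1 at 0 in every library; 194 and 81 of their counts were of Akr1b7. The part of these markers in the alpha-class differences was not tested.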

How the data were processed

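The authors deposited raw counts per mouse Ensembl gene for 17 kidney libraries, 9 db/db and 8 db/m by sample title. Per the labels' protocols, libraries were made with a QuantSeq 3′ forward kit; the same text speaks of cells in plates, whereas the tissue field gives kidney. Per the submitters' processing notes, STAR 2.7.3a and HTSeq 2.16.2 were used, with the human build GRCh38 named although the identifiers are mouse; the sources used here do not give mouse build, strand setting, read length or duplicate handling. Lines for reads outside genes (19.3% of all reads) and ambiguous reads (0.533%) were left out. Of 55487 identifiers 55141 received a symbol.

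Counts were fitted with edgeR 4.0.16 in R 4.3.3 (filterByExpr, minimum count 10; TMM; quasi-likelihood F-test), which tested 12131 genes; genes with a Benjamini-Hochberg adjusted p under 0.05 were called. Log2 fold changes are db/db over db/m; an SE is the log2 fold change divided by the square root of F, and intervals are at 95%. Relations used log2 CPM with prior count 2. DESeq2 1.42.0 was run beside it. No library was a copy of another (lowest chi-square per degree of freedom 3.57).

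Sequence windows and order of genes came from GENCODE M21 and RefSeq (GRCm38.p6); no coordinate was transferred to the counts. Sequences were aligned with Biopython 1.88.

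The members and gene lists were chosen with earlier results of these data known. Named are the members and their copies; in each list the 4 called genes with the smallest p, or, with none called, the gene with the smallest p; and for each tested member the 3 genes most like it. Genes and transcription factors named beyond this were chosen after their values were seen. Normalization, filter, test, a replicate block and each library were varied.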

Additional observations from a re-analysis of the deposited data

Results flagged for a closer look

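The highest values of a pair of genes stood far from the rest of their group, out of 14 sets of values examined, of which chance flags about 1 in 20. Gsta2 in db/db replicate 3 was at 144.9 CPM, with the next library at 88.7 CPM. Gm10639 in the same library was at 42.6 CPM, with the next at 24.6 CPM. Both come from 1 library and from genes that share sequence, so they are not independent. Without that library the log2 fold changes were 4.03 for Gsta2 and 3.40 for Gm10639.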

How the results depend on the processing

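Gsta2, Gsta3 and Gsta4 kept the sign of their log2 fold change in all 17 fits that left out 1 library (4.03 to 4.36, 0.52 to 0.69 and 0.88 to 1.22) and in every other setting tried. Gsta4 left the called genes with a replicate block and in the same 16 libraries without it; Gsta3 entered them with DESeq2 and without db/db replicate 8. Called genes numbered 474 higher and 423 lower; leaving out 1 library gave 324 to 654 and 324 to 592. A set of 16 libraries gave 380 and 352 without a replicate block and 194 and 231 with it. With the block, Gstt3, Gclc, Dpep1, Gpx3 and Nqo1 lost their calls, and 2 of the NRF2 targets were called higher. Of these genes, Gstt3 and Dpep1 had already lost theirs in the 16 libraries without the block, as had Kyat1. Gstt3, Kyat1 and Gpx3 lost theirs with no filter, and Kyat1 with total counts. Equal replicate numbers did not pair the samples: deviations of same-numbered libraries correlated at -0.454 to 0.212, and 1 of 8 db/db libraries correlated best with its own number. The relation of Gsta2 with Gsta4 in db/m, -0.0938 with TMM, was 0.00176 with total counts; no other relation changed sign or call with total counts or prior count 0.5. Settings added after seeing the data were the 16 libraries without a block, library sizes without mitochondrial genes, and leaving out db/db replicate 8. The first and last of these repeat fits among the 17, those without db/db replicate 9 and without db/db replicate 8, so they add no separate check. Gsta1 gave no value under any setting. Depth limits Gsta2 and Gm10639 in db/m, where counts were few, and the loss of reads shared between copies cannot be measured from this table.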

Other observations

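Reads that HTSeq listed as ambiguous made up 0.516% to 0.609% of reads in db/db libraries and 0.475% to 0.540% in db/m libraries. Reads with several alignments have a separate line, which is 0 in every library, so these percentages do not measure reads lost between gene copies. Which genes the ambiguous reads came from is not recorded in the table.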
